A study of Mus musculus with 6 samples.

Results

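The CCN genes and the Yap pathway genes of the mouse palate were compared between embryos lacking Kmt2d in the neural crest and wild type embryos. The 8 genes were taken by symbol from the 23366 genes listed in each count file: Ctgf, Cyr61, Nov, Wisp1 and Wisp2, the older names of the CCN family members Ccn2, Ccn1, Ccn3, Ccn4 and Ccn5, together with Yap1, Wwtr1 and Ankrd1. All 8 were listed in all 6 files, and 7 of them passed the filter on low counts, with Wisp2 below it. Messenger RNA was sequenced from dissected palatal shelves at E14.25, with 3 libraries of the genotype Kmt2dfl/fl Wnt1-Cre, called KO, and 3 of the genotype WT. The KO embryos carried floxed Kmt2d alleles and a Cre recombinase under Wnt1 control, which acts in the premigratory neural crest and dorsal neural tube. Deletion was therefore aimed at the crest-derived mesenchyme, and the epithelium, endothelium and muscle of the shelf come from other lineages. The labels give no alleles for the WT embryos beyond that name, and do not say whether shelves of several embryos were pooled. The libraries are numbered 1, 2 and 3 in KO and 2, 3 and 4 in WT, and are written KO1 to KO3 and WT2 to WT4.

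YAP1 and TAZ, the product of Wwtr1, are transcriptional coactivators that shuttle between cytoplasm and nucleus. The Hippo kinases MST act through the LATS kinases, which phosphorylate YAP1 and TAZ and hold them out of the nucleus. In the nucleus YAP1 and TAZ act through the DNA-binding TEAD proteins. Ctgf, Cyr61 and Ankrd1 are the targets most often used to read their activity, and stretch and matrix stiffness raise all 3 in cultured cells. The CCN proteins are secreted and bind integrins, proteoglycans and LRP receptors, and they take part in cartilage, bone and vessel development.

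Counts assigned to genes ran from 12721979 to 20203309 in KO and from 20785074 to 24916079 in WT. The ribosomal RNA gene Rn45s took 35.1%, 18.6% and 30.0% of these counts in KO1, KO2 and KO3, and 16.2% to 20.7% in WT. The targeted transcript, listed as Mll2, stood between 193 and 539 CPM (counts scaled to a common normalised library size) in KO and between 171 and 211 CPM in WT. A count over the whole gene also takes in undeleted exons and cells outside the crest lineage, so it does not check the labels. KO2 stood apart: 47.5% of its pairs fell in no annotated gene, and in the other 5 libraries 12.3% to 18.1% did. Its 13 skeletal muscle markers, led by Ttn, summed to 11508 CPM, whereas KO1 and KO3 had 540 and 330 CPM and the WT libraries 392 to 759 CPM. Of that sum in KO2, Ttn alone made up 10160 CPM. The tested members and the list medians are therefore also given without KO2. The 12 markers of palatal mesenchyme, led by Col3a1, summed to 5100 to 6016 CPM in KO and 5735 to 6654 CPM in WT, and all 12 were tested.

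Yap1 and Wwtr1 were the most abundant of the 8 genes per length in both groups, and Nov, Ankrd1 and Wisp2 the least. Levels are compared between genes only as CPM per kilobase of exon, with lengths from GENCODE M21. Yap1 reached 24.7 ± 3.53 CPM per kilobase in KO and 26.1 ± 1.25 in WT (SD, n = 3 each), and Wwtr1 17.8 ± 1.94 in KO and 20.98 ± 1.32 in WT (SD, n = 3 each). In each group the lowest Yap1 library lay above the highest Wwtr1 library on this scale. Cyr61 had 9.72 ± 1.29 CPM per kilobase in KO and 10.5 ± 0.821 in WT (SD, n = 3 each). Ctgf had 8.48 ± 2.27 in KO and 8.77 ± 1.99 in WT, and Wisp1 8.43 ± 2.33 in KO and 11.7 ± 2.11 in WT, on the same scale (SD, n = 3 each). The library ranges of these 3 CCN genes overlapped within each group, so their order was not separated by the spread. Nov followed at 0.831 ± 0.0938 CPM per kilobase in KO and 1.29 ± 0.355 in WT (SD, n = 3 each), below every library of the other 3. Ankrd1 ranged from 0.0383 to 0.551 in KO and from 0.0466 to 0.333 in WT, and Wisp2 from 0 to 0.0574 in KO and from 0.0932 to 0.148 in WT, also per kilobase.

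**Figure D1:**
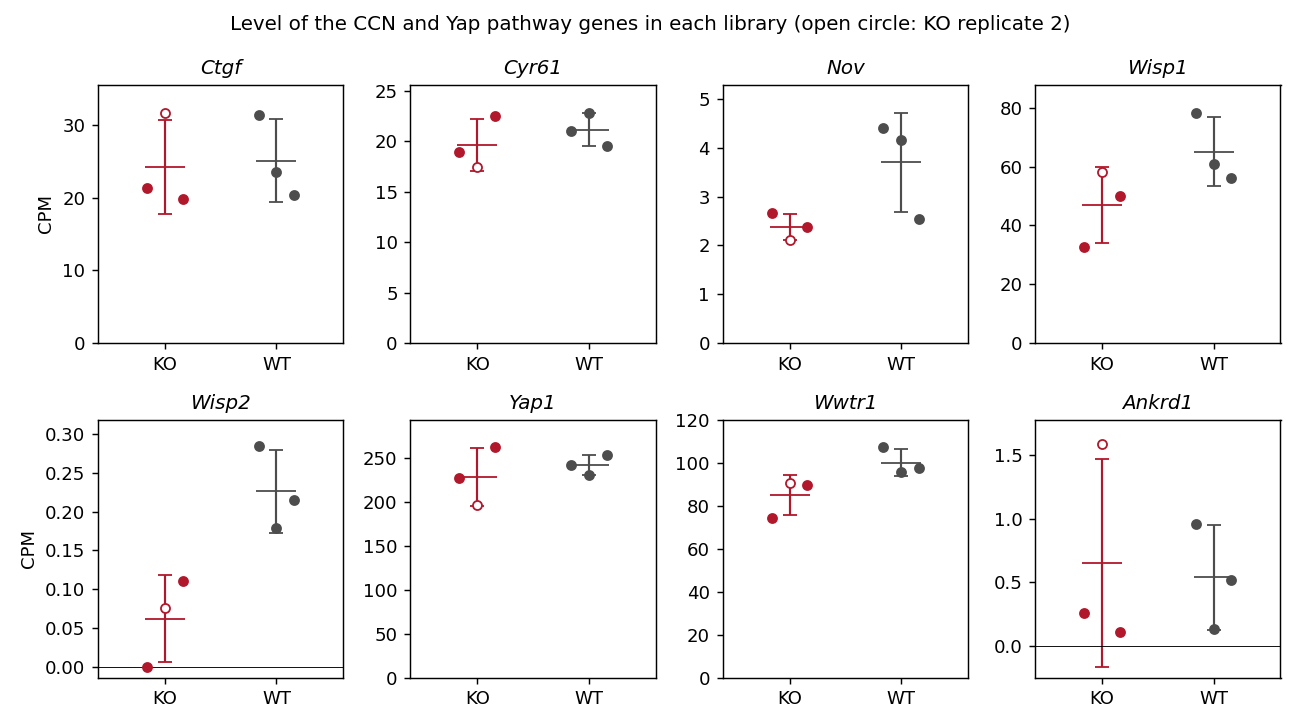
Level of each of the 8 genes in CPM (linear axes, 1 scale per gene) in the 3 KO and 3 WT libraries. Points are libraries (the open circle is KO2), and bars give the mean ± SD; all 3 KO libraries lie below all 3 WT libraries for Wwtr1 and Wisp2, and the groups overlap for the other 6 genes.

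None of the 7 tested members differed between KO and WT past the threshold of an adjusted p of 0.05 (edgeR quasi-likelihood test), and 0 of 7 had an unadjusted p under 0.05. DESeq2 also called 0 of 7 while calling 3.42% of all genes to which it gave an adjusted p, and limma voom called 0 of 7 and 0.422% of all tested genes. Over all 14233 genes tested, 0.534% passed the adjusted threshold (0.436% lower and 0.0984% higher in KO) and 14.20% had an unadjusted p under 0.05. The log2 fold change, KO over WT, was below 0 for 6 of the 7, against 48.5% of all tested genes, and all 7 intervals included 0. Every KO library lay below every WT library for 1 of the 7, Wwtr1, against 11.2% of all tested genes. Every KO library lay above every WT library for 0 of the 7, against 12.3% of all tested genes. Without KO2, 0 of 7 passed while 2.12% of all tested genes did, and 2 of 7, Wisp1 and Wwtr1, had an unadjusted p under 0.05 against 16.5% of all tested genes.

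**Figure D2:**
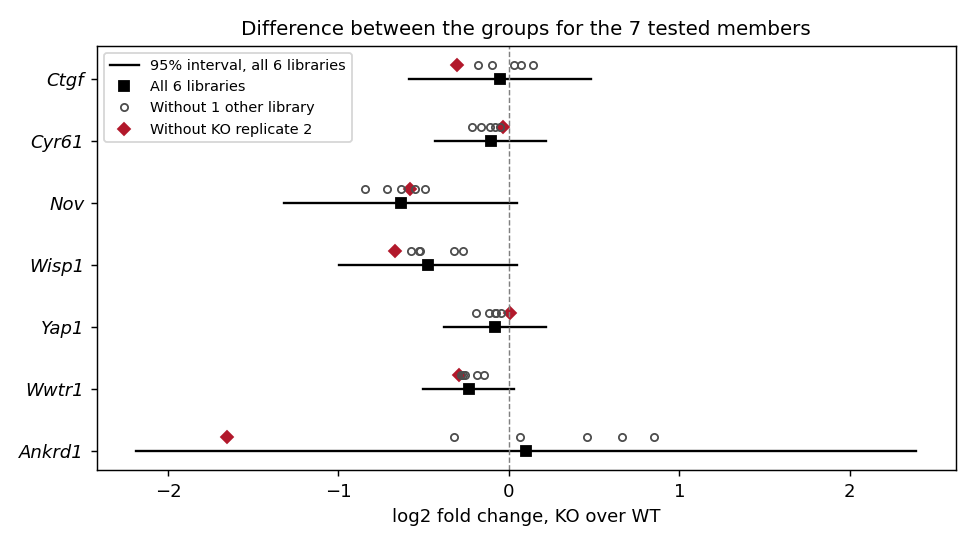
Log2 fold change, KO over WT, of the 7 tested genes. Squares and lines give the estimate and 95% interval from all 6 libraries, and the smaller symbols the estimate with 1 library left out (red diamond, without KO2); every interval crosses 0, and for Ankrd1 the square is at 0.10 and the diamond at -1.65.

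The coactivators themselves were measured most precisely. Yap1 stood at 227, 197 and 262 CPM in KO1, KO2 and KO3, against 242, 230 and 253 CPM in WT2, WT3 and WT4. KO3 was the highest and KO2 the lowest of all 6 libraries, so the KO range enclosed the WT range. The Yap1 log2 fold change was -0.08 (SE 0.13, 95% interval -0.38 to 0.22, adjusted p = 0.782), an interval that spans 0.768-fold to 1.16-fold. Without KO2 the Yap1 estimate was 0.0058 (adjusted p = 0.985).

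Wwtr1 had 74.5, 90.9 and 90.1 CPM in KO1, KO2 and KO3, against 107, 95.8 and 97.6 CPM in WT2, WT3 and WT4. The KO libraries were all lower than the WT libraries, KO1 by most. The Wwtr1 log2 fold change was -0.24 (SE 0.11, 95% interval -0.50 to 0.032, adjusted p = 0.385), and the interval spans 0.705-fold to 1.02-fold. Without KO2 it was -0.29 (adjusted p = 0.172), and without KO1 it was -0.15. The ratio of Wwtr1 to Yap1 counts within a library, which does not depend on depth, was 0.328, 0.462 and 0.344 in KO1, KO2 and KO3 and 0.444, 0.416 and 0.386 in WT2, WT3 and WT4. The groups overlapped in this ratio (two-sided exact permutation test, p = 0.5, and 0.75 adjusted over the 3 ratios computed). Overlap on the opposite strand is annotated for Yap1 (Gm20416) and Ctgf (Gm15270), neither listed in the files, and reads of the paired genes cannot be told apart without a stated strand setting.

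The promoter windows of the pathway genes are shown because TEAD proteins, the partners of YAP1 and TAZ, bind the hexamer GGAATG. Windows of 300 bases around the start site were matched by symbol for 4 of the 8 genes (Cyr61, Yap1, Wwtr1 and Ankrd1; not Ctgf, Nov, Wisp1 or Wisp2) and come from RefSeq on GRCm38.p6, not the build of the counts, and all 4 lie on the minus strand. They are printed 5′ to 3′ in the direction of the gene, with GGAATG, or CATTCC where it lies on the other strand, in capitals. The windows of the targets Cyr61 (chr3:145649936-145650235) and Ankrd1 (chr19:36119795-36120094) are given whole, and those of Yap1 (chr9:8004712-8004757) and Wwtr1 (chr3:57576021-57576066) as 46 bases around the hexamer.
Cyr61: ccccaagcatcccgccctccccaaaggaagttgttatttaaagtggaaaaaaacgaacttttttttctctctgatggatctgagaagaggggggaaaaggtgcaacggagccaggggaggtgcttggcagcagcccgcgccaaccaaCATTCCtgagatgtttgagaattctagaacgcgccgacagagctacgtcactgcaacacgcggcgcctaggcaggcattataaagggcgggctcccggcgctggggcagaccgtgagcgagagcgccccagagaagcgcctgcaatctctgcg
Ankrd1: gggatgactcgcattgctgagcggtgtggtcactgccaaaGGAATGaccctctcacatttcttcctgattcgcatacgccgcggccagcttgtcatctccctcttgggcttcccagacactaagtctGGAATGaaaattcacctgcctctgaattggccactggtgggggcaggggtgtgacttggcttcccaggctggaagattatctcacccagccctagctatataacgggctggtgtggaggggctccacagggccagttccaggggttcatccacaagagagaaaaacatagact
Yap1: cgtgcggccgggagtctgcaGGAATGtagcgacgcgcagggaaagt
Wwtr1: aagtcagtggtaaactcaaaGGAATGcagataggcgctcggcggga

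The hexamer occurred in the windows of all 4 genes. It occurred 1 time for Cyr61, beginning at -103 from the start site, and 2 times for Ankrd1, at -210 and -123. For Yap1 it began at -141, and for Wwtr1, which has 2 overlapping windows in the table, at -136 and -170 from their start sites. On both strands, GGAATG was found in 14.7% of all 32851 windows of this length. The AP-1 motif TGANTCA was found in 0 of the 4 genes' windows and 7.81% of all windows. The motif TATAAA was found for Cyr61, at -25, and in 13.6% of all windows. The hits of the different motifs did not overlap, and a match describes letters, not binding.

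Ctgf, which encodes a matricellular protein of cartilage, bone and vessels, did not separate the groups. It had 21.3, 31.7 and 19.8 CPM in KO1, KO2 and KO3, against 31.4, 23.5 and 20.4 CPM in WT2, WT3 and WT4. KO2 and WT2 were high, and the other 4 libraries lay within 19.8 to 23.5 CPM. The Ctgf log2 fold change was -0.05 (SE 0.23, 95% interval -0.59 to 0.48, adjusted p = 0.93), an interval of 0.666-fold to 1.40-fold. Its sign turned with the library left out, -0.30 without KO2 and 0.14 without WT2. The coefficient of variation was 26.7% in KO and 22.7% in WT, where counting error alone gives 5.21% and 4.14%. KO2 and WT2 also had the highest sums of skeletal muscle markers in their groups. For the sum of 13 chondrocyte markers WT2 was the highest of the 6 libraries and KO2 the lowest. That sum was 388, 224 and 449 CPM in KO1, KO2 and KO3, against 1535, 565 and 483 CPM in WT2, WT3 and WT4. The part of these cells in the Ctgf values was not tested.

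Cyr61, an angiogenic CCN protein and immediate early gene that also answers growth factors, had overlapping groups. Its levels were 18.98, 17.4 and 22.5 CPM in KO1, KO2 and KO3, against 21.04, 22.9 and 19.5 CPM in WT2, WT3 and WT4. KO2 was the lowest and WT3 the highest, and the coefficient of variation was 13.2% in KO and 7.84% in WT. The Cyr61 log2 fold change was -0.11 (SE 0.14, 95% interval -0.43 to 0.22, adjusted p = 0.734), and its interval spans 0.741-fold to 1.17-fold. Without KO2 the Cyr61 estimate was -0.04 (adjusted p = 0.923), and without KO3 it was -0.22 (adjusted p = 0.395). Cyr61 and Ctgf did not follow each other across libraries: KO2 was the highest library for Ctgf and the lowest for Cyr61. The ratio of Cyr61 to Ctgf counts ran from 0.549 in KO2 to 1.13 in KO3, and from 0.669 to 0.973 in WT (two-sided exact permutation test, p = 1).

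Wisp1, a WNT-induced CCN gene of osteoblast precursors and perichondral mesenchyme, had a mean that was lower in KO and did not pass the test. It stood at 32.7, 58.1 and 49.9 CPM in KO1, KO2 and KO3, against 78.4, 61.0 and 56.0 CPM in WT2, WT3 and WT4. KO1 was the lowest library and WT2 the highest, and the groups overlapped only through KO2, which lay above WT4. The means were 46.9 ± 12.97 CPM in KO and 65.2 ± 11.8 CPM in WT (SD, n = 3 each), with -0.47 as the log2 fold change (SE 0.22, 95% interval -0.997 to 0.048, adjusted p = 0.377). Without KO2 the Wisp1 estimate was -0.67 (unadjusted p = 0.0261, adjusted p = 0.232), and without KO1 it was -0.27. The interval from all 6 libraries spans 0.501-fold to 1.03-fold. The ratio of Wisp1 to Ctgf counts was 1.54, 1.83 and 2.52 in KO1, KO2 and KO3 and 2.49, 2.60 and 2.74 in WT2, WT3 and WT4 (two-sided exact permutation test, p = 0.2, and 0.6 adjusted over the 3 ratios). KO1 and KO2 lay below the WT range and KO3 within it.

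The summed level of 12 osteoblast markers, led by Col1a1, was 1160 to 1513 CPM in KO and 2421 to 3853 CPM in WT, without overlap, and their part in the Wisp1 values was not tested. Of the 10 osteoblast markers tested, 0 were higher and 2 were lower past the threshold (edgeR). Over all tested genes, 0.0984% were higher and 0.436% lower. The log2 fold change was above 0 for 5 of the 10 markers and below 0 for 5, against 48.5% of all tested genes below 0. In whole shelves, fewer cells of a type and less RNA per cell cannot be told apart.

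Nov, a CCN protein of chondrocytes, vessels and nervous tissue, was a low transcript, with 113 counts over the KO libraries and 276 over the WT libraries. It had 2.66, 2.12 and 2.38 CPM in KO1, KO2 and KO3, against 4.41, 4.17 and 2.54 CPM in WT2, WT3 and WT4. WT2 and WT3 were high, and WT4 lay within the KO range. The Nov log2 fold change of -0.63 was the most negative of the 7 tested members (SE 0.29, 95% interval -1.32 to 0.0498, adjusted p = 0.372). The Nov interval spans 0.401-fold to 1.04-fold, and with single libraries left out the estimate ran from -0.84 (without WT4) to -0.49 (without WT2), and was -0.58 without KO2 (adjusted p = 0.423).

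Wisp2, a CCN protein that lacks the C-terminal domain of the other members, was at the limit of detection. Counts were 0, 1 and 2 in KO1, KO2 and KO3, against 8, 4 and 5 in WT2, WT3 and WT4. The KO libraries were all lower than the WT libraries. A count of 0 in KO1 allows up to 0.190 CPM (3 counts), and the WT libraries had 0.179 to 0.285 CPM. The depth-adjusted ratio of the summed counts, KO over WT, was 0.276, with a 95% counting interval of 0.0518 to 0.953. The two-sided exact permutation test on CPM gave p = 0.1, the smallest value that 3 against 3 libraries allow. With no filter the fitted log2 fold change of Wisp2 was -1.79 (edgeR, adjusted p = 0.437).

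Ankrd1, a nuclear ankyrin repeat protein of striated muscle and a YAP target, varied within both groups more than between them. It had 4, 21 and 2 counts in KO1, KO2 and KO3 and 27, 3 and 12 counts in WT2, WT3 and WT4. These are 0.253, 1.59 and 0.110 CPM in KO1, KO2 and KO3, against 0.961, 0.134 and 0.517 CPM in WT2, WT3 and WT4, a 14.4-fold range over the 6 libraries. KO2 was the highest and KO3 the lowest of all. The Ankrd1 log2 fold change was 0.10 (SE 0.98, 95% interval -2.19 to 2.39, adjusted p = 0.968), and -1.65 without KO2 (adjusted p = 0.478). An interval from 0.219-fold to 5.25-fold does not give a direction. The coefficient of variation of Ankrd1 was 125% in KO and 77.0% in WT, where counting error alone gives 51.6% and 38.9%. KO2 and WT2, the highest libraries for Ankrd1, also had the most skeletal muscle markers (11508 and 759 CPM), and KO3 and WT3, the lowest, had the least (330 and 392 CPM). KO1, with 540 CPM of these markers, stood below WT4, with 487 CPM, in Ankrd1. Without Ttn, a sum added after seeing the data, the other 12 markers summed to 349, 1349 and 259 CPM in KO1, KO2 and KO3 and to 603, 299 and 421 CPM in WT2, WT3 and WT4. In that sum the 6 libraries stood in the same order as in Ankrd1. The part of muscle in the Ankrd1 values was not tested.

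**Figure D3:**
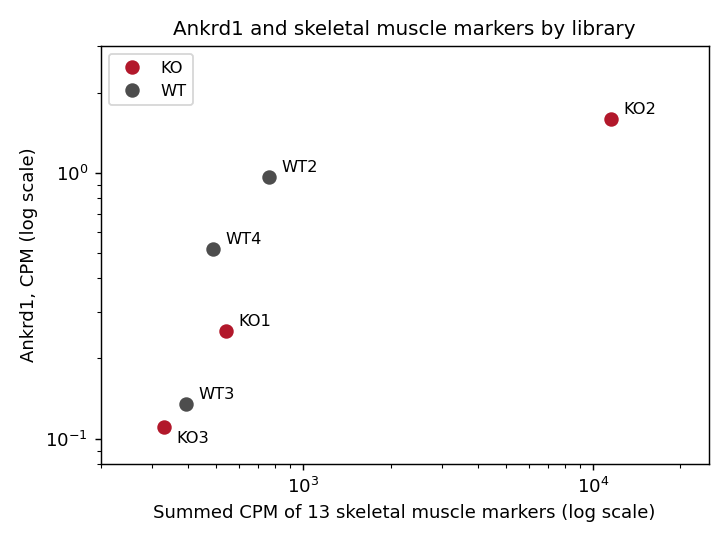
Ankrd1 level in CPM against the summed CPM of 13 skeletal muscle markers, both on log axes, with 1 point for each KO and WT library. KO2 is at the top right with 1.59 CPM of Ankrd1 and 11508 CPM of the markers, and KO3 and WT3 are at the bottom left.

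Around the coactivators, the Hippo kinases and scaffolds and the TEAD proteins held no gene past the threshold. Of 22 kinases, scaffolds and other upstream regulators, 0 passed in either direction in edgeR, and DESeq2 and limma voom also called 0. In edgeR 2 of 22 had an unadjusted p under 0.05, against 14.20% of all tested genes. The median log2 fold change of the 22 was -0.017, beside 0.011 over all tested genes. That median ran from -0.051 (without WT2) to 0.039 (without WT4) with single libraries left out, and was -0.013 without KO2, beside 0.016 over all genes in that fit. Fat4, an atypical cadherin upstream of the kinases, had the smallest p, with 580, 701 and 487 CPM in KO1, KO2 and KO3, against 429, 411 and 313 CPM in WT2, WT3 and WT4. All KO libraries were above all WT libraries for Fat4 (log2 fold change 0.62, SE 0.18, adjusted p = 0.238), and the estimate was 0.46 without KO2 (adjusted p = 0.186). Such a separation was seen for 3 of the 22, Fat4 among them, against 12.3% of all tested genes. Every KO library lay below every WT library for 0 of the 22, against 11.2%. Of 8 Tead and Vgll genes, the partners of YAP1 and TAZ and their competitors, 0 passed in edgeR, DESeq2 or limma voom, with a median of -0.021. In edgeR 1 of 8 had an unadjusted p under 0.05, against 14.20% of all tested genes. The sign of the Tead and Vgll median turned with the library left out, from -0.17 without KO2 to 0.033 without KO3. The smallest p among them was that of Tead3, with 44.7 ± 3.46 CPM in KO and 53.9 ± 3.61 CPM in WT (SD, n = 3 each), with -0.27 as the log2 fold change (adjusted p = 0.334), and -0.30 without KO2 (adjusted p = 0.175). Tead1 stood at 251 ± 41.8 CPM in KO and 239 ± 12.8 CPM in WT (SD, n = 3 each; adjusted p = 0.828), and was chosen after its values were seen.

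Of 19 genes of a YAP/TAZ target signature, drawn from human tumours and listed without the 8 members, 0 rose and 1 fell, Axl (edgeR). Over all tested genes, 0.0984% rose and 0.436% fell. Amotl2, Lats2 and Ptpn14 are also among the upstream regulators above, so these lists share genes and are not independent. Axl, a receptor tyrosine kinase for GAS6, had 75.7, 76.0 and 65.7 CPM in KO1, KO2 and KO3, against 148, 125 and 139 CPM in WT2, WT3 and WT4. The groups lay far apart, and the log2 fold change of Axl was -0.92 (SE 0.11, adjusted p = 0.0281). With 1 library left out, Axl kept an estimate of -0.99 to -0.86, but passed only without KO2 (adjusted p = 0.00156), with adjusted p = 0.0668 to 0.172 in the other 5 fits. The median of the 19 was -0.13, beside 0.011 over all tested genes, with 14 of 19 below 0 against 48.5%. It ran from -0.22 (without KO3) to -0.081 (without WT4) with single libraries left out, and was -0.11 without KO2. Nt5e, the ecto-5′-nucleotidase CD73, lay just outside the threshold, with 7.05 ± 1.21 CPM in KO and 15.9 ± 1.90 CPM in WT (SD, n = 3 each; log2 fold change -1.17, adjusted p = 0.05004). DESeq2 called 3 of the 19, all lower (Axl, Ccdc80 and Nt5e), where it called 2.28% of all genes lower. Without KO2, 4 of the 19 fell, against 1.57% of all tested genes, and 0 rose: Axl, Nt5e, Ccdc80 and Myof, the last 3 named after their values were seen. Ccdc80, a secreted matrix protein, had a log2 fold change of -0.73 and Myof, the membrane repair protein myoferlin, one of -0.73 in that fit (adjusted p = 0.0166 and 0.00603). With all 6 libraries Ccdc80 stood at -0.66 (adjusted p = 0.111) and Myof at -0.39 (adjusted p = 0.455). For Myof, KO2 had 68.3 CPM and lay within the WT range of 59.3 to 70.2 CPM. Of the 19, 3 genes (Axl, Nt5e and Ccdc80) had every KO library below every WT library, against 11.2% of all tested genes, and 1, Dock5, had every KO library above every WT library, against 12.3%. Dock5, a guanine nucleotide exchange factor for Rac, had 24.4 ± 2.92 CPM in KO and 18.7 ± 1.13 CPM in WT (SD, n = 3 each; log2 fold change 0.38, adjusted p = 0.292).

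**Figure D4:**
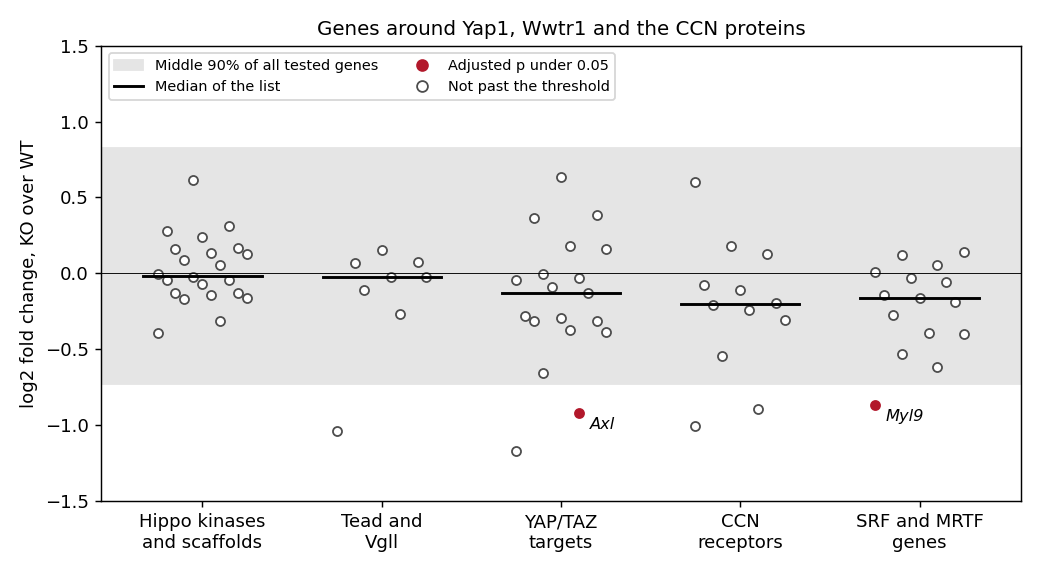
Log2 fold change, KO over WT, of the genes in 5 lists around Yap1, Wwtr1 and the CCN proteins. Amotl2, Lats2 and Ptpn14 are in both the Hippo list and the YAP/TAZ target list. Each point is a gene (red, adjusted p under 0.05), black bars are list medians and the grey band holds the middle 90% of all tested genes; Axl (-0.92) and Myl9 (-0.87) are the only points past the threshold.

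Of 12 receptors and binding partners of CCN proteins, 0 passed in edgeR, with a median of -0.20 beside 0.011 over all tested genes. In edgeR 4 of 12 had an unadjusted p under 0.05, against 14.20% of all tested genes. Limma voom called 0, and DESeq2 called 3 lower, Itgb3, Notch1 and Sdc4, where it called 2.28% of all genes lower. With single libraries left out the median ran from -0.24 (without KO3) to -0.16 (without WT2), and it was -0.16 without KO2 as well. Notch1, which binds NOV in cultured cells, had the smallest p, with 72.4, 53.1 and 53.0 CPM in KO1, KO2 and KO3, against 83.4, 90.6 and 86.6 CPM in WT2, WT3 and WT4. The KO libraries were all lower for Notch1 (log2 fold change -0.55, SE 0.14, adjusted p = 0.203), and the estimate was -0.48 without KO2 (adjusted p = 0.105). In this list 6 of 12 genes had every KO library below every WT library, against 11.2% of all tested genes, and 1, Itgam, had every KO library above every WT library, against 12.3%. The 6 included the integrin chains Itgb1, Itgb3, Itgb5 and Itga5 and the proteoglycan Sdc4, and they and Itgam, an integrin chain of myeloid cells, were named after their values were seen. Sdc4 fell without KO2 (log2 fold change -0.66, adjusted p = 0.00703), and stood at -0.90 with all 6 libraries (adjusted p = 0.209). It was the 1 member of the list to pass without KO2, where 1.57% of all tested genes fell. The 10 endothelial markers, led by Cdh5, summed to 251 to 295 CPM in KO and 315 to 344 CPM in WT, and the 13 epithelial markers, led by Krt14, to 367 to 635 CPM in KO and 670 to 817 CPM in WT. The groups did not overlap in either sum, and the part of these cells in the receptor values was not tested.

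Of 15 tested actin cytoskeleton genes that respond to SRF and its MRTF coactivators, 0 rose and 1 fell, Myl9 (edgeR). This pathway also acts on CCN genes. Over all tested genes, 0.0984% rose and 0.436% fell. Of the 15, 4 had an unadjusted p under 0.05, against 14.20% of all tested genes. In this list 5 of 15 genes had every KO library below every WT library, against 11.2% of all tested genes. Every KO library lay above every WT library for 2 of the 15, against 12.3%. Myl9, a regulatory myosin light chain of smooth muscle and other contractile cells, had 28.2, 29.5 and 30.3 CPM in KO1, KO2 and KO3, against 53.6, 55.5 and 51.9 CPM in WT2, WT3 and WT4. Each group was tight, and the log2 fold change was -0.87 (SE 0.096, adjusted p = 0.0203). With 1 library left out, the Myl9 estimate stayed between -0.90 and -0.84 and passed only without KO2 (adjusted p = 0.00141), with adjusted p = 0.0613 to 0.184 in the other 5 fits. The median of the 15 was -0.17, beside 0.011 over all tested genes. It ran from -0.24 (without KO2) to -0.12 (without WT4) with single libraries left out. Without KO2, 2 of the 15 fell, Myl9 and Tpm1, against 1.57% of all tested genes, and 0 rose. Tpm1, named after its values were seen, had a log2 fold change of -0.38 in that fit (adjusted p = 0.0268). With all 6 libraries Tpm1 stood at -0.14 (adjusted p = 0.725). Srf itself, chosen after its values were seen, stood at 47.3 ± 0.731 CPM in KO and 47.1 ± 2.45 CPM in WT (SD, n = 3 each; log2 fold change 0.0052, adjusted p = 0.984). The 10 markers of pericytes and smooth muscle, led by Pdgfrb, summed to 381 to 440 CPM in KO and 485 to 555 CPM in WT without overlap, and their part in the Myl9 values was not tested.

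Likeness of each member's profile over the 6 libraries to other genes was measured as the root mean square difference of log2 CPM, centred on each gene's mean, among 12618 named genes with a mean of at least 1 CPM. The nearest genes to Wisp1 were Ccdc3 (0.068) and Trim9 (0.11), and Wwtr1 was its nearest member at 0.23, ranking 93 among all genes. Ccdc3 had 17.8, 27.5 and 23.5 CPM in KO1, KO2 and KO3, against 38.5, 30.2 and 27.2 CPM in WT2, WT3 and WT4, the same order of the 6 libraries as Wisp1. The nearest genes to Ctgf were Lrp11 (0.060) and Elf4 (0.082), and its nearest member, Wwtr1, ranked 1692. For Cyr61 they were Leprotl1 (0.029) and Mettl2 (0.042), and for Nov they were Mrgpre (0.11) and Fzd9 (0.12). Yap1 was nearest to Eif1ad (0.012) and Ube2r2 (0.023), and Wwtr1 to Tram1 (0.033) and Zcchc10 (0.034). Small differences are easier to reach for genes that vary little, such as Yap1, whose own spread was 0.13 on this scale against 0.38 for Wisp1.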

How the data were processed

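Palatal shelves of 3 KO and 3 WT samples were sequenced as paired 25 bp reads after a stranded mRNA kit, per the labels' protocols. The submitters' processing notes name TopHat2, SAMtools, HTSeq and mm9 with no version; which annotation and strand setting were used is not given in the sources used here. What the authors deposited are raw read counts per gene symbol, without normalisation. The 5 category lines entered no library size and no test (pairs outside genes, 12.3% to 47.5%; not unique, 18.1% to 30.3%).

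Counts were filtered with filterByExpr, scaled by TMM and tested across 14233 genes with edgeR 4.0.16 (R 4.3.3, quasi-likelihood, robust, no covariate), with Benjamini-Hochberg adjustment over all of them. Intervals are 95%. Counting intervals and floors take in counting error alone and leave out the spread between libraries. No molecular identifiers mark single molecules, so duplicate reads of a molecule could not be told apart. Alternatives were DESeq2 1.42.0, limma voom 3.58.1, other size factors and filters, single libraries left out, a block for the replicate number, and a fit without Rn45s and Lars2. No pair of libraries in a group agreed within sampling noise (chi-square 11.01 to 153 for each degree of freedom). The labels call the samples biological replicates without naming litters, and p-values measure the spread between these samples.

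The members and lists were chosen with earlier results of these data known. The 8 members are always named. From each pathway list the genes past the threshold are named, or else the 1 with the smallest p, and for each member with a mean of at least 1 CPM the 2 nearest in pattern (log2 CPM with a prior count of 1). Markers of other cells are given as sums with the most abundant gene. Summed neural markers, led by Sox2, were 173 to 396 CPM in KO and 232 to 329 CPM in WT. Summed macrophage and red cell markers, led by Mrc1, were 45.6 to 64.4 CPM in KO and 73.3 to 87.3 CPM in WT, with Hba-a1 at 0 in all 6 libraries.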

Additional observations from a re-analysis of the deposited data

How the results depend on the processing

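No member passed the threshold in any of the 15 alternative fits, and Cyr61, Nov, Wisp1 and Wwtr1 kept a negative log2 fold change in all 15. Yap1 turned positive only without KO2 (-0.19 to 0.0058 with single libraries left out), and Ctgf without KO1 (0.033), KO3 (0.073) or WT2 (-0.30 to 0.14 with single libraries left out). Ankrd1 turned negative in limma voom (-0.30) and without KO2 or WT3 (-1.65 to 0.85 with single libraries left out), and had no value with the filter of 1 CPM in 3 libraries. The count over all genes was 76, and 486 with DESeq2, 298 with the replicate block and 0 to 306 with single libraries left out. The count of 0 came without WT2 or WT3 (edgeR; an unadjusted p under 0.05 was reached by 1102 and 1117 genes), 3 without WT4, 11 without KO3 and 20 without KO1. Genes past the threshold in the 5 pathway lists numbered 2, and 7 with DESeq2, 5 with the replicate block and 0 to 7 with single libraries left out (7 without KO2, 0 without any other). The cause of these changes was not tested. The groups share the numbers 2 and 3, and KO1 and WT4 have no library of the same number in the other group. The replicate block fit therefore took its KO effect from KO2, KO3, WT2 and WT3 alone. Deviations of same-numbered libraries correlated at 0.21 for number 2 and -0.14 for number 3 across genes, so the numbers were not taken as pairs. Depth limits Wisp2, with 3 counts over the KO libraries and 17 over the WT libraries. Counts were also low for Ankrd1 (27 in KO and 42 in WT), whose spread between libraries exceeded counting error in both groups.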

Other observations

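The files also list Wisp3, the older name of the sixth CCN family member, which is not among the 8 genes. Wisp3 had 2, 3 and 5 counts in KO1, KO2 and KO3, against 7, 2 and 8 counts in WT2, WT3 and WT4, below the filter on low counts. The depth-adjusted ratio of its summed counts, KO over WT, was 0.919, with a 95% counting interval of 0.376 to 2.13, and the groups overlapped (two-sided exact permutation test on CPM, p = 0.9).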
